A study of Mus musculus with 19 samples.

Results

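The Oas region is the stretch of mouse chromosome 5 that holds Oas2, Oas3 and Oas1a together with further Oas1 copies. Its members were the accessible regions in the authors' consensus list of ATAC-seq peaks that overlapped chromosome 5 from 120855000 to 121060000 on build mm39, whatever their strength. There were 59 such peaks of 140383 in the whole list, and of 8624 on chromosome 5. ATAC-seq marks open DNA by the insertion of sequencing adapters by Tn5 transposase. It was run on 19 samples of bone marrow-derived macrophages, of which 10 were SMARCA5 knockout (Smarca5lox/lox Csf1r-Cre) and 9 were wild type (Csf1r-Cre). Both genotypes carried Cre driven from Csf1r, a gene of the macrophage lineage, and both were given 4-hydroxytamoxifen daily while they differentiated over 7 days. Smarca5 encodes an ATPase of the ISWI chromatin remodellers.

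Within each genotype, cells received LPS (10 ng/ml, 1 or 2 h), interferon beta (100 U/ml, 1 or 2 h) or no treatment, which makes 10 groups. Each group had 2 samples, except that wild-type cells with interferon beta at 1 h had 1. The question behind the design is what SMARCA5 contributes to accessible chromatin at rest and under stimulation. The list gives 1 set of values per peak, names no sample and does not state which samples each value rests on. The values below therefore describe the Oas region in the series' list, with no comparison of genotype or treatment, no replicate error and unknown depth. The deletion of Smarca5 was not checked here for the same reason. Macrophage markers were not checked either, since the gene annotation used here belongs to another build than the list.

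Oas genes form a family, and whether each copy named below makes an active enzyme was not examined here. Active Oas enzymes sense double-stranded RNA, a product of viral infection, and answer by making short chains of linked adenylates. In mouse and human cells these chains switch on RNase L, which cuts viral and cellular RNA. Oas genes are textbook interferon-stimulated genes. Interferon beta acts on such genes through the interferon-stimulated response element, or ISRE, in their promoters. Oas2 and Oas3 are the larger enzymes, built from repeated copies of the domain that Oas1a holds once.

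By the RefSeq gene order on GRCm38.p6, used for names and neighbours only, Dtx1 lies next to Oas2 at the lower end. Oas3 follows, then the 6 copies Oas1e, Oas1c, Oas1b, Oas1f, Oas1h and Oas1g, and then Oas1a. Oas1b is annotated there as a transcribed pseudogene. Gm7573 and Oas1d lie beyond Oas1a, before Rph3a. The approximate lower ends on mm39 were 120868400 for Oas2, 120891160 for Oas3 and 121034300 for Oas1a. These 3 genes are read toward lower coordinates, so each starts at its upper end. The upper ends on mm39 were not used here, so no peak is called a promoter peak below.

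The RefSeq promoter windows of the Oas genes are shown because the ISRE is known as a promoter element. They run from 250 bases before to 50 after the annotated start on GRCm38.p6, and 6 of the 10 Oas genes looked up had one, including Oas3 and Oas1a. Oas2, Oas1b, Oas1d and Oas1e had none, so their promoters were not searched. The ISRE core was searched as GAAANNGAAA on both strands, and 4 of these 6 windows held it. Among all 32851 RefSeq promoter windows, 3.44% held it. The 4 windows that held the core are printed from 5′ to 3′ on the gene's own strand, all from the minus strand of chromosome 5, with the core in capitals.
Oas3: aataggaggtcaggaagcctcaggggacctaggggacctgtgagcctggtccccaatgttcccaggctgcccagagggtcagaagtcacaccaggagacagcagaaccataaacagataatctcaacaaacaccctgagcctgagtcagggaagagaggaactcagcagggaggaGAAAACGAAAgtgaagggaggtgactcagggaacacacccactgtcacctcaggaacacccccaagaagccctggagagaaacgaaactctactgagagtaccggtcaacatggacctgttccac
Oas1a: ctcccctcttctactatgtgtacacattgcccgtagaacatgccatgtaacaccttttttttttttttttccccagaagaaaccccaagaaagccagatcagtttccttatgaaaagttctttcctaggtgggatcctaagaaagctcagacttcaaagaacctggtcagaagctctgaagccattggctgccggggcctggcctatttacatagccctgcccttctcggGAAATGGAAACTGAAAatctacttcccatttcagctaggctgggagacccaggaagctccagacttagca
Oas1g: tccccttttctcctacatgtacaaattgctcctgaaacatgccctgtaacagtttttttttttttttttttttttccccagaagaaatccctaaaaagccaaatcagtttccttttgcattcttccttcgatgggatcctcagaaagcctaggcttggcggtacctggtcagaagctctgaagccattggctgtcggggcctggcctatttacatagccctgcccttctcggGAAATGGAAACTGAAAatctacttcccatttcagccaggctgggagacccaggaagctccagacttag
Oas1c: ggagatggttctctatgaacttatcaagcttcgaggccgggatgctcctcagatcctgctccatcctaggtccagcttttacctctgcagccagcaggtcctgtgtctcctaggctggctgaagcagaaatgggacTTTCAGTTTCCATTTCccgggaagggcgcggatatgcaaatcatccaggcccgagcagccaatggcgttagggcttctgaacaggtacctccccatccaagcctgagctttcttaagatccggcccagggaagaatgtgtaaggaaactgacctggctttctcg

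Oas3 held 1 match, which began 75 bases before the start. Oas1a held 2 overlapping matches that began 20 and 14 bases before the start, and Oas1g held 2 that began 18 and 12 bases before it. Oas1c held 2 overlapping matches on the opposite strand, the first of them 114 bases before the start. The windows of Oas1f and Oas1h, which are read in the other direction along the chromosome, held 0 matches. The Oas1 copies are related by descent, so the matching windows of Oas1a, Oas1g and Oas1c are not independent of each other. The Oas1a and Oas1g windows were identical at 261 of 306 aligned positions (85.3%), and those of Oas1f and Oas1h at 73.4% of 316. Every other pair of the 6 windows was at most 48.7% identical. The handling of reads that match more than 1 copy is not given in the sources used here, so peaks over such copies are uncertain in height.

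Other motifs were searched in the same windows, on both strands. The AP-1 site, searched as TGANTCA, was present in Oas3 alone among the 6 windows, with 2 matches, against 7.81% of all windows. The composite of an ETS and an IRF half-site, searched as GGAANNGAAA, was in 0 of the 6 windows, against 2.72% of all windows. A match describes these letters only and does not show that a factor was bound.

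The Oas region was packed with accessible sites. Its 59 peaks gave 288 peaks per Mb, against 58.1 peaks per Mb over chromosome 5. Peaks covered 14.3 kb, or 6.99% of the region, against 1.44% of chromosome 5 between its first and last peak. When the assembled chromosomes were tiled in 12921 windows of the same length, 205 kb, only 13 windows (0.101%) held at least 59 peaks. The median tiled window held 5 peaks, and the fullest held 66. The region's own bounds were drawn around the cluster, whereas tiled windows fall anywhere, which favours the region in this ranking. Windows of the same length were therefore also started at every peak of chromosome 5. The fullest of these ran from 120849663 to 121054663, lay over the Oas region and held 61 peaks. The fullest one elsewhere on the chromosome, from 3391199 to 3596199, held 59.

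**Figure D1:**
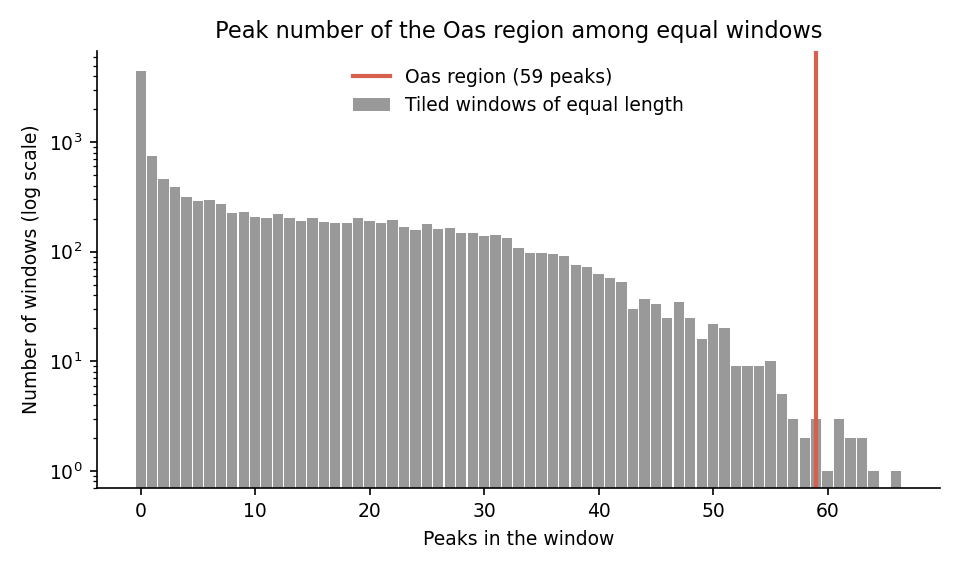
Number of peaks in each of the 12921 tiled windows of equal length (x axis), with the number of windows on a log scale (y axis). The line marks the Oas region at 59 peaks, a level that 13 tiled windows reached.

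Most of these many peaks were of low enrichment. The fold enrichment, the authors' value for a peak over its local background, had a median of 6.39 in the Oas region, with quartiles of 4.24 and 11.3. The median was 9.64 on chromosome 5 and 9.85 in the whole list. A fold at or above the list's median was reached by 18 of 59 Oas peaks (30.5%), where the whole list has 50.0% by construction. In 3 Oas peaks (5.08%) the fold was 20 or more, against 15.0% of the whole list. The 13 tiled windows with at least as many peaks had median folds from 5.32 to 9.35, and 4 of them lay below the Oas region. Peaks were 179 bp wide in the median, with a range from 56 to 917 bp, against 194 bp on chromosome 5 and 196 bp in the whole list.

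By significance, the Oas peaks were nearer the rest of the list at the median, though not at the strong end. The −log10 q, the authors' measure of how firmly a peak was called, had a median of 43.2 in the Oas region, against 44.4 on chromosome 5 and 45.3 in the whole list. It reached or passed the list's median in 27 of 59 Oas peaks (45.8%), against 50.0% of the list. The median Oas peak stood at the 22.0th percentile of the list by fold but at the 48.4th by −log10 q. To compare at equal fold, each −log10 q was divided by the median of all list peaks in the same percentile of fold. This ratio had a median of 1.75 in the Oas region and 1.04 on chromosome 5, and it is 1 in the whole list by construction. It was over 2 in 27 of 59 Oas peaks (45.8%), against 22.1% on chromosome 5 and 21.0% of the whole list. Neighbouring peaks share their local background and are not independent, so these shares are given with no test. Across the 59 peaks, which share 1 stretch of the genome, the rank correlation of −log10 q with fold was 0.811 (Spearman's rho). This was close to the 0.831 of chromosome 5 and the 0.836 of the whole list.

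**Figure D2:**
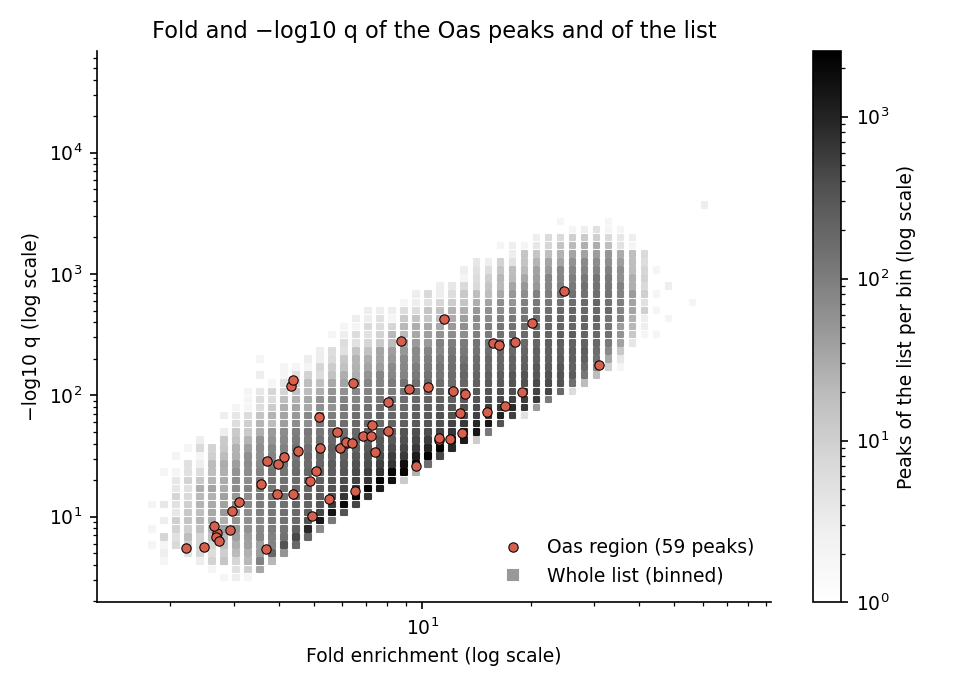
Fold enrichment (x axis, log scale) and −log10 q (y axis, log scale) of the 59 Oas peaks (red points) and of the whole list (grey squares, shaded by the number of peaks per bin). Many Oas peaks lie high in −log10 q for their fold, with 27 of the 59 over 2 times the median at that fold, while the Oas peak of the highest fold, 30.9, lies near the lower edge of the cloud.

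The Oas2 stretch, from the lower end of Oas2 to that of Oas3, held the most significant peak of the region. It spanned 22.8 kb and held 7 peaks with folds from 2.69 to 24.7. The strongest lay at 120887572 to 120888265 and was 694 bp wide, with a fold of 24.7 and a −log10 q of 731. By −log10 q it stood at the 97.5th percentile of the list, and by fold at the 92.0th. Its summit, at 120887951, was 19.6 kb above the lower end of Oas2 and 3.21 kb below that of Oas3. The largest gap between neighbouring peaks in the region, 11.7 kb, began at its upper edge and ran over the lower end of Oas3.

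A group of 3 peaks lay about midway through this stretch. The peak at 120879134 to 120879312 had a fold of 12.2 and a −log10 q of 109, and its summit was 10.8 kb above the lower end of Oas2. Next to it, the peak at 120879612 to 120879704 had a fold of 10.4 and a −log10 q of 118, although it was only 93 bp wide. The peak at 120880338 to 120880471 was weaker, with a fold of 7.26 and a −log10 q of 56.8. All 3 lay over 2 times the median −log10 q of their fold percentile, with ratios of 2.21, 3.07 and 2.78. The peak at 120884696 to 120885181 was wide, at 486 bp, but its fold was only 3.70.

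The lower end of Oas2 lay in weakly accessible DNA. It fell within the peak at 120868284 to 120868502, which had a fold of 2.49 and a −log10 q of 5.64, in the lowest 1% of the list by both measures. The peaks at 120868724 to 120868965 and 120869626 to 120869757 were similarly low, with folds of 2.70 and 2.69. Just below that end, between 120866299 and 120867325, 3 peaks had higher folds of 5.21, 6.17 and 5.92 and −log10 q values of 36.5, 40.2 and 36.5. The last of these began where its neighbour ended, without a base between them. Together the 6 peaks formed the largest group in the region, spanning 3459 bp.

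Above the lower end of Oas3, a compact block of 4 peaks had high significance for its folds, which ran from 4.34 to 11.5. The block spanned 2480 bp, from 120913405 to 120915884, and lay 22.2 to 24.7 kb above that lower end. Its first peak, 649 bp wide, had a fold of 11.5 and a −log10 q of 425, the second highest of the region. Its last peak, at 120915665 to 120915884, had a fold of 8.72 and a −log10 q of 278. Between them, the touching peaks at 120914489 to 120914600 and 120914601 to 120914695 had folds of only 4.34 and 4.38. Their −log10 q values were nevertheless 119 and 134. At equal fold, the 4 peaks had 9.85, 8.70, 9.79 and 10.1 times the median −log10 q of the list, in order of position. These were the 4 highest ratios in the Oas region. Fold is relative to local background, and no background track was used here, so what sets it in this block was not tested.

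The rest of the way from the lower end of Oas3 to this block was sparse. It held 2 peaks. The peak at 120899993 to 120900365 had a fold of 7.40 and a −log10 q of 34.3, and that at 120908317 to 120908481 a fold of 4.39 and a −log10 q of 15.5. Both −log10 q values were below the median of the list.

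**Figure D3:**
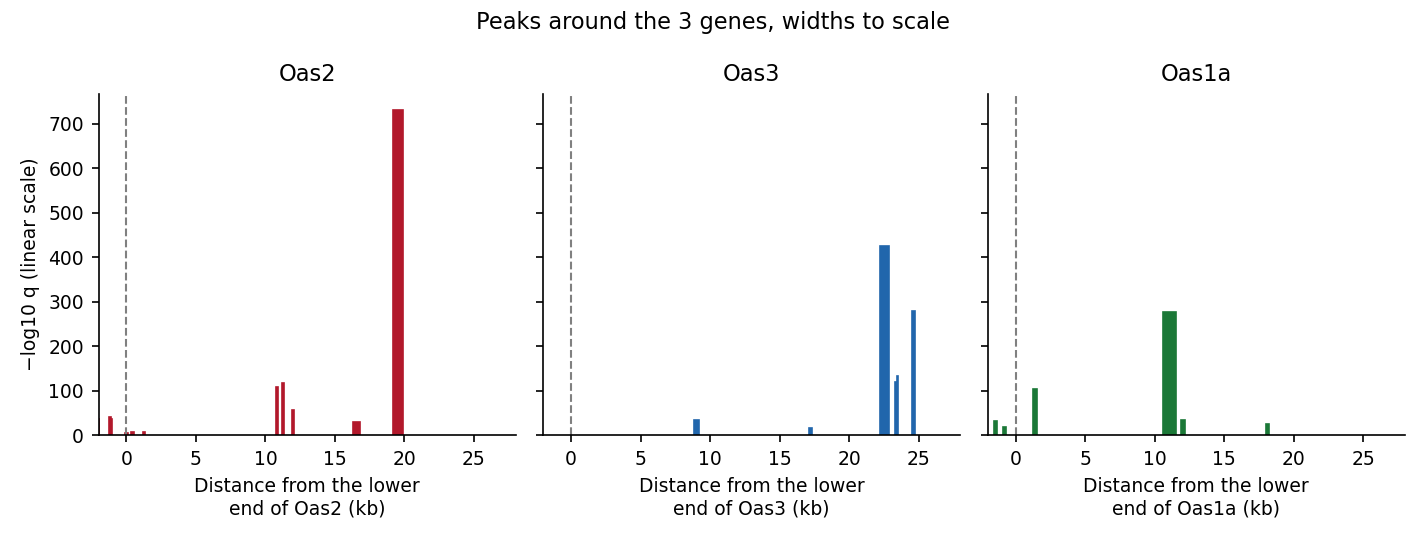
The −log10 q of peaks (y axis, linear) by distance from the lower end of each gene in kb (x axis), with bar widths equal to peak widths. The tallest bars stand 19.2 to 19.9 kb above the lower end of Oas2, 22.2 to 22.9 kb above that of Oas3 and 10.6 to 11.5 kb above that of Oas1a.

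Above the lower end of Oas1a, the smallest of the 3 enzymes, accessibility was concentrated in 1 broad peak. It lay at 121044907 to 121045823 and at 917 bp was the widest peak of the Oas region and at the 99.6th percentile of the list by width. Its fold was 18.1 and its −log10 q was 277. Its summit, at 121045624, lay 11.3 kb above the lower end of Oas1a and toward the upper side of the peak, 717 bp from its start. A weaker peak at 121046209 to 121046466 followed, with a fold of 4.52 and a −log10 q of 34.6. Close to the lower end of the gene, the peak at 121035586 to 121035868 had a fold of 13.2 and a −log10 q of 103. Between that peak and the broad peak no peak was listed over 9038 bp. The lower end itself lay in no peak. The nearest peak was 707 bp below it, at 121033427 to 121033593, with a fold of 3.57. Farther up, in the direction of Gm7573 and Oas1d, the region held 1 more peak, at 121052284 to 121052521, with a fold of 9.58 and a −log10 q of 26.3.

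Set side by side, the main peaks above the 3 lower ends differed in kind. The Oas2 peak combined the highest −log10 q, 731, with a fold of 24.7. The Oas1a peak was wider, at 917 against 694 bp, with a −log10 q of 277 and a fold of 18.1. The first Oas3 peak was 649 bp wide and ranked above the Oas1a peak by −log10 q, at 425, yet below it by fold, at 11.5. No replicate spread was available to test these differences.

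The stretch from the lower end of Oas3 to that of Oas1a takes in Oas3 and the 6 Oas1 copies, and it held 44 of the 59 peaks over 143 kb. Its density, 3.07 peaks per 10 kb, was close to the 3.08 peaks per 10 kb of the Oas2 stretch. Above the lower end of Oas1a the density was 1.56 peaks per 10 kb. The 44 peaks ranged in fold from 2.21 to 30.9, with a median of 6.41. Of them, 13 had a fold of 10 or more, a level just above the list's median of 9.85, which 50.0% of the list reached. Of the 13, none lay in the Oas3 part below its block, where the highest fold was 7.40. Individual peaks could not be assigned to Oas1 copies, since the positions of those copies on mm39 were not used here.

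The highest fold of the whole Oas region lay between the lower ends of Oas3 and Oas1a, and near neither of them. The peak at 120969051 to 120969392 had a fold of 30.9, at the 97.6th percentile of the list, but a −log10 q of 179, at the 82.7th. At equal fold its −log10 q was only 0.383 times the list's median, the second lowest such ratio in the region. It stood alone, with gaps of 5720 and 5554 bp to its neighbours. Its summit was 78.1 kb above the lower end of Oas3 and 65.0 kb below that of Oas1a.

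The next highest folds between the lower ends of Oas3 and Oas1a belonged to 2 peaks of opposite character. The peak at 120950446 to 120950962, 517 bp wide, had a fold of 20.2 and a −log10 q of 396, the third highest of the region. Its neighbour at 120951537 to 120951684 had a low fold of 6.44 with a −log10 q of 127, which was 7.80 times the median at its fold. Farther on, the peak at 120954122 to 120954276 had a fold of 5.19, and its −log10 q of 66.6 was 5.33 times that median. The peak at 120925229 to 120925595, by contrast, had a fold of 18.9 and a −log10 q of 108, or 0.839 times the median at its fold, and lay 9344 and 5620 bp from its neighbours.

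Peaks whose significance was near or below the list's at their fold recurred along the middle of the cluster. The peaks at 120931216 to 120931406 and 120987772 to 120987969 had folds of 15.2 and 17.0 with −log10 q values of 72.3 and 82.0. At equal fold these were 0.887 and 0.807 times the list's median −log10 q. The pair at 120974947 to 120975190 and 120975361 to 120975514 had folds of 12.0 and 12.9, with ratios of 0.909 and 0.875. The peaks at 120982834 to 120983058 and 121003532 to 121003779 had folds of 11.1 and 11.2, with ratios of 1.05 and 1.08. All 8 peaks from 120969051 to 121003779 had ratios between 0.369 and 1.08, against 8.70 to 10.1 in the Oas3 block. Low ratios were not confined to the middle. The peak over the lower end of Oas2 had 0.457, and the peak at 121030946 to 121031573, near Oas1a, had 0.445. Ratios above 1 were found in 38 of the 59 Oas peaks. They were found in 4515 of the 8624 peaks of chromosome 5 and 70182 of the 140383 in the whole list.

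Nearer Oas1a, a group of 3 peaks between 121025315 and 121026362 was strong by both measures. The peak at 121025315 to 121025443 had a fold of 15.7 and a −log10 q of 268, with its summit only 4 bp from its start. The peak at 121025613 to 121025788 had a fold of 16.3 and a −log10 q of 260. The third, at 121026190 to 121026362, was lower, with a fold of 8.05 and a −log10 q of 88.3. At equal fold, their −log10 q values were 3.07, 2.79 and 3.69 times the list's median. They lay 7.94 to 8.98 kb below the lower end of Oas1a, where the next gene in the RefSeq order is Oas1g. The peak at 121029268 to 121029474, still nearer Oas1a, had a fold of 9.17 and a −log10 q of 112.

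Sites of lower fold lay between these peaks. The lowest fold of the region, 2.21, belonged to a peak 628 bp wide at 121030946 to 121031573, with a −log10 q of 5.48. Between 121008813 and 121015867, 7 peaks lay within 7055 bp, of which 4 had folds from 2.64 to 3.10 and the other 3 from 5.79 to 8.04. Those 3 had −log10 q values of 46.5, 50.7 and 49.6, just above the list's median of 45.3. A group of 4 between 120961041 and 120963330 had folds from 2.92 to 6.84 and −log10 q values from 7.83 to 45.9. Over the region, peaks less than 1 kb apart formed 36 groups, of which 24 were single peaks and 12 held 2 to 6 peaks. The median gap between neighbouring peaks was 1734 bp.

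**Figure D4:**
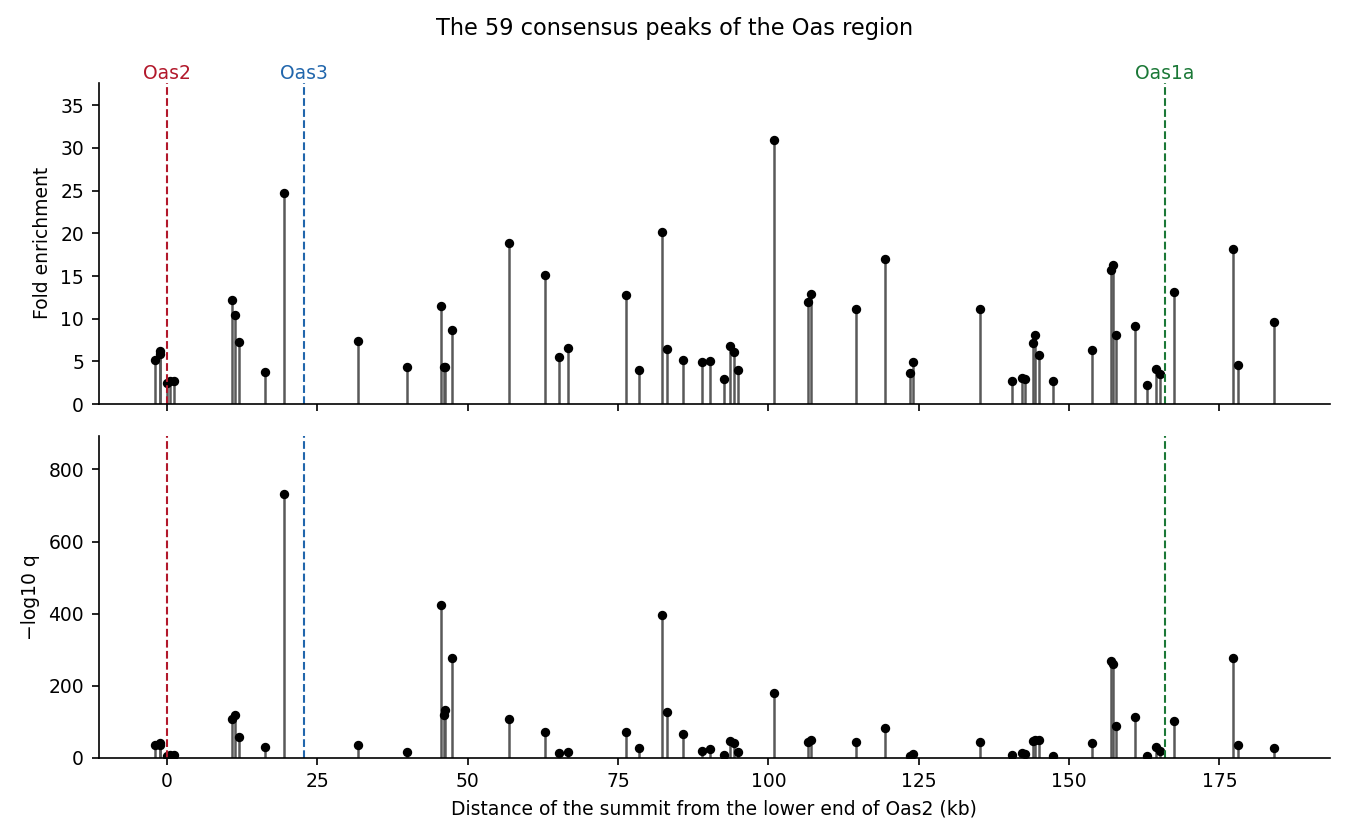
Fold enrichment (upper panel) and −log10 q (lower panel) of the 59 Oas peaks by distance of the summit from the lower end of Oas2 in kb (x axis), with dashed lines at the lower ends of Oas2, Oas3 and Oas1a. The tallest point by fold, 30.9, lies between the lower ends of Oas3 and Oas1a. The tallest by −log10 q, 731, lies between those of Oas2 and Oas3.

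At the borders of the region, the first peak inside lay 11.3 kb above the lower border, with a fold of 5.21, and the last lay 7.48 kb below the upper border, with a fold of 9.58. The nearest peaks outside were 2.36 kb below the region, with a −log10 q of 8.65, and 2.28 kb above it, with a −log10 q of 21.8. The next peaks out were stronger than the median Oas peak. The one 5.13 kb below the region had a fold of 12.4 and a −log10 q of 55.9, and the one 5.23 kb above it had a fold of 18.3 and a −log10 q of 84.0.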

How the data were processed

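ATAC-seq was run by the authors on 19 macrophage samples in 10 groups, assigned here from their titles. The build was mm39 and the software MACS2 2.2.7.1, STAR 2.7.9a, deepTools 3.5.1 and Picard 2.27.4, per the submitters' processing notes. What each tool did, any read shifting, the calling threshold and how peaks became 1 list: not given in the sources used here. For each peak, the 1 deposited list holds a start and end, a score, a fold ratio, a −log10 p, a −log10 q and a summit offset, all the authors' own values. They were used only to describe and rank peaks within the list. The score deposited by the authors entered the closing observations alone. Depth per sample is unknown, so no counting interval was given.

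Coordinates were read as counted from 1, because 0 summit offsets then reach the peak width, against 74 under a count from 0. Peaks share no base under either count, so this did not bear on the choice. A peak was a member when any base overlapped the window. Positions are those of the list. Stretches between genes were cut at the approximate lower ends given with the choice of region, and a peak was placed by its summit. The members and gene lists were chosen with earlier results of these data known. Peaks named in full were the 5 of highest fold, the widest and those nearest the lower ends; other peaks were named after their values were seen, and every peak of the region enters the counts. Pathway genes and markers of cell types had been planned but are not analysed here, since the gene table used belongs to GRCm38.p6. Promoter sequences are RefSeq's for GRCm38.p6 and were aligned globally for identity. Counting, window, merging, motif and alignment steps were tested on simulated data. Alternatives were a stricter threshold, merging within 100 bp, a window shorter by 10 kb at each end, other tilings, and ranks within chromosome 5. The software was Biopython 1.88, matplotlib 3.10.9, scipy 1.17.1, pandas 2.3.3 and numpy 2.4.6 under Python 3.11.15.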

Additional observations from a re-analysis of the deposited data

How the results depend on the processing

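Of 26 alternative values over 12 results, 22 stayed within 1.5 times the count or within the 95% interval of the median or share, which treats peaks or windows as independent. With only peaks at or above the list's median −log10 q, 27 peaks were counted (132 per Mb) and the median fold was 11.5. This follows from leaving out weak peaks. Ranked among windows of chromosome 5 alone, the region stood at the 100th percentile by number of peaks, against the 99.9th over all windows. Merging peaks within 100 bp gave 56 peaks, and the shorter window 58. Gap limits for groups and 1 kb shifts of the lower ends were added after seeing the data, and no count moved by over 1.5 times. No paired analysis was possible because no sample has values of its own in the list, and no replicate could be left out. Since depth is unknown, a stretch with no peak may still be accessible.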

Other observations

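The deposited scores of the Oas peaks differed in whether they were whole numbers. For each score, the smallest multiplier up to 20 that made it whole (within 1e-06) was found. This multiplier was 1 for 18 of the 59 Oas peaks (30.5%), against 17.8% of the whole list, and 20 for 6 Oas peaks (10.2%), against 14.6% of the list. The 6 peaks of multiplier 20 had folds from 8.04 to 20.2 and −log10 q values from 50.7 to 396. They included the broad peak above Oas1a, the last peak of the Oas3 block and the peak at 120950446 to 120950962. A multiplier of 2 was found for 8 Oas peaks (13.6%), against 13.2% of the list. The 26 peaks of multiplier 1 or 2 had a median fold of 4.66, with a range from 2.21 to 17.0. Folds by multiplier are not given here for the whole list, so whether this difference is particular to the Oas peaks was not tested. The strongest Oas2 peak and the first peak of the Oas3 block had a multiplier of 10. The series has 19 samples in 10 groups, and whether the multipliers reflect either number was not tested. Over the whole list, the multipliers 11, 13, 15, 17 and 19 were each found for 0 peaks. The even multipliers 12, 14, 16 and 18 did occur, each for 1.57% to 2.22% of peaks. What gives this pattern was not tested. How the scores were made is not stated, so a multiplier cannot be tied to a sample, genotype or treatment.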
